A study of Rattus norvegicus with 2 samples.

Results

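Fibroblasts of the dorsal root ganglion (DRG) were studied as 538 single cells, 211 from control rats and 327 from rats with diabetic peripheral neuropathy (DPN), among 24179 cell barcodes in all. The cells were chosen by measured values. A barcode was taken as a fibroblast if it held at least 1000 unique molecular identifiers (UMIs, 1 per captured transcript molecule), if under 20% of them came from mitochondrially encoded genes, and if, per 10000 UMIs, Lum, Dcn and Gpc3 together reached 20 and Lum alone reached 3. Barcodes with endothelial genes (Cldn5, Flt1 and Cdh5 together at 5 or more), glial genes (Fabp7 and Tyrp1 at 12 or more) or mural genes (Tagln, Acta2 and Myh11 at 30 or more) were left out. These 11 genes chose the cells, so their levels are a description and not a result. The DPN library came from male Sprague-Dawley rats that were 8 weeks old at the start and received a single intraperitoneal dose of 65 mg/kg streptozotocin (STZ), a toxin of the insulin-producing beta cells. The Control library came from rats of the same sex, strain and age injected with citrate buffer. Bilateral lumbar ganglia of 5 rats were pooled into 1 library per group 8 weeks after injection, digested with enzymes, and cleared of dead cells before capture on the 10x Chromium 3′ platform. Rats within a pool cannot be told apart, and the model is chemically induced loss of insulin in young male animals.

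Fibroblasts build the connective tissue of a ganglion. They lie in the outer capsule, which is continuous with the layers around the nerve and the meninges, in the loose tissue around vessels, and in the endoneurium between the neuronal cell bodies and axons. Their collagens, small leucine-rich proteoglycans and adhesive glycoproteins make up the extracellular matrix, and their secreted growth factors, binding proteins and chemokines reach neurons, glia and immune cells. Fibroblasts that take up a repair programme typically make more fibronectin and versican and assemble contractile filaments.

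Levels are given as CPM, the UMIs of a gene scaled to a fixed total over the fibroblasts of a library. The assay counts 3′ ends, so levels are not divided by gene length and are compared within a gene only. The 211 Control cells held 1476679 UMIs and the 327 DPN cells 2359722. The median cell held 6595 UMIs and 1915 genes in Control and 6105 UMIs and 2028 genes in DPN, and the median share of mitochondrially encoded UMIs was 4.61% and 5.30%. A count of 3 UMIs, taken as the limit that a count of 0 allows, equals 2.03 CPM in Control and 1.27 CPM in DPN. Other barcodes within the same UMI and mitochondrial limits were deeper in Control, with a median of 10068 UMIs against 6469.5 in DPN. Both libraries contained the same sequence for 38 barcodes, none of which was a fibroblast. With 1 library per group there is no replicate and no test between Control and DPN is possible. Each ratio below is DPN over Control, with the exact 95% interval that the UMI counts allow in brackets. These intervals hold the error of counting and nothing of the variation among rats, pools or preparations, and whether a difference belongs to diabetes, to the rats or to the preparation cannot be told apart.

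Fibroblasts made up 2.15% of the 9798 Control barcodes within the UMI and mitochondrial limits (exact 95% interval 1.88% to 2.46%) and 2.97% of the 11013 DPN barcodes (2.66% to 3.30%). With a limit of 10% mitochondrially encoded UMIs the shares were 8.263% in Control and 8.594% in DPN, nearer to each other. The difference in share thus depended on that limit. With only 1 dissociated pool per group, the yield of cells and the makeup of the tissue cannot be told apart. The label of fibroblasts was checked against Apod, Myoc and Pdgfra, which the choice did not use, and Lum, Dcn and Gpc3 are given beside them as a description. Dcn, the collagen-binding proteoglycan decorin, stood at 32069 CPM in Control and 23841 CPM in DPN fibroblasts, 724 times its level in all other barcodes within those limits. Apod, a lipid-binding secreted protein of nerve fibroblasts, stood at 108831 and 68148 CPM, 914 times the other barcodes. Myoc, the secreted glycoprotein myocilin, stood at 6765 and 5571 CPM, 869 times the others. Pdgfra, the receptor for platelet-derived growth factor that marks fibroblasts of most organs, was at 188 and 175 CPM, 159 times the others. Lum and Gpc3 were likewise 839 and 532 times the others, and in the endothelial, mural and satellite glial cells gated from the same libraries none of the 6 was near its fibroblast level.

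**Figure D1:**
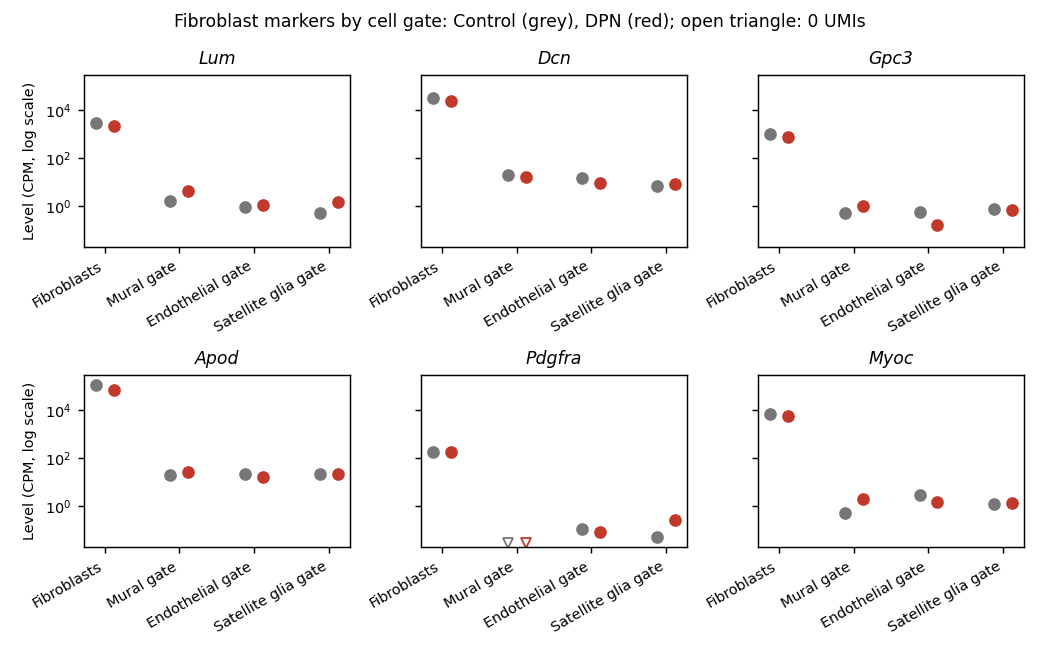
Level in CPM (log axis) of 6 fibroblast markers in fibroblasts and in mural, endothelial and satellite glial cells gated from the same barcodes, in the Control (grey) and DPN (red) libraries. In each panel the fibroblasts lie above every other gate, from 175 CPM for Pdgfra in DPN to 108831 CPM for Apod in Control, and open triangles mark 0 UMIs.

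Near the limits of the choice, the Control fibroblast with the lowest Lum value held 3.19 per 10000 UMIs, and the nearest Control cell that failed on Lum alone held 1.53. In DPN these values were 3.03 and 2.57. Cells that failed on Lum alone numbered 5 in Control and 23 in DPN, and those that failed on the sum of Lum, Dcn and Gpc3 alone 7 and 19. The glial limit alone removed 7 Control and 3 DPN cells and the endothelial limit 0 and 9.

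Genes that stood furthest above all other barcodes described the fibroblasts beyond the genes that chose them. Ucma, which encodes a small secreted matrix protein first known from cartilage, was 1224 times higher than in other barcodes and stood at 135 CPM in Control and 64.8 in DPN. Bmp7, a bone morphogenetic protein, was 793 times and Aldh1a1, a retinoic acid-producing enzyme, 669.6 times the other barcodes. Egfr, the epidermal growth factor receptor, was 646 times the others, and Scara5, a ferritin receptor, 584 times. Dpp4, a surface peptidase of adventitial fibroblasts, was 480.4 times, Ramp1, a subunit of the receptor for the sensory neuropeptide CGRP, 436 times and Thbs4, a matrix glycoprotein, 428 times the others. These genes were found on the same cells that the choice defined, so they describe those cells and carry no test.

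Of 14720 genes detected in fibroblasts, 4186 held at least 100 UMIs over both libraries and a UMI in at least 10% of the fibroblasts of a library, and these were compared. In the DPN library 1083 genes, or 25.9% of those compared, stood higher than in Control by a ratio of at least 1.5 with an interval above 1, and 178 genes, or 4.25%, stood lower by the same fold. Genes past the fold in either direction made up 30.1% of genes, and 61.4% of genes had a ratio above 1. The median log2 ratio over the compared genes was 0.15, so list medians below should be read against that value and not against 0. Scaling by the median ratio instead of the total UMIs set this median to 0 and gave 806 genes higher and 391 lower, and the higher genes then made up 67.3% of those past the fold in place of 85.9%. Among the 1206 genes with at least 400 UMIs the median log2 ratio was 0.003, while 212 genes were higher and 45 lower, so that higher genes still made up 82.5% of those past the fold. With every cell thinned to 1000 UMIs, 658 genes could be compared, of which 92 were higher and 51 lower, so that higher genes made up 64.3% of those past the fold. Thinned ratios of named genes are given below whether or not the gene still held 100 UMIs after thinning. Some of them therefore rest on few UMIs, and none carries an interval. Of the 1083 higher genes, 1016 stayed above 1 under every other setting tried, whether or not they held enough UMIs to be compared there. Counted apart, 717 stayed past the fold under every setting in which they could be compared. Of the 178 lower genes, 161 stayed below 1 and 64 stayed past the fold, counted in the same ways. List counts below are read against the 25.9% of all genes higher and the 4.25% lower.

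**Figure D2:**
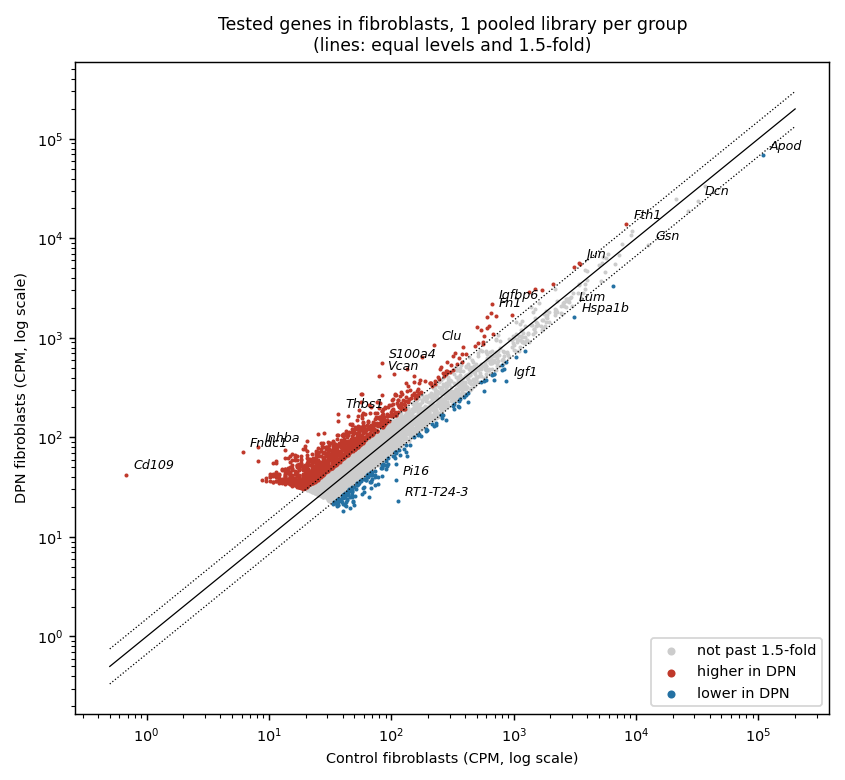
Level of each of the 4186 compared genes in Control (x) and DPN (y) fibroblasts, in CPM on log axes, with 1083 genes higher in DPN in red and 178 lower in blue. The solid line marks equal levels and the dotted lines 1.5-fold differences, and Vcan, S100a4 and Fn1 lie above the upper line.

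The 15 highest ratios included matrix, adhesion and membrane genes. Cd109, a surface protein that binds transforming growth factor beta (TGF beta), had 1 UMI in Control fibroblasts and 100 in DPN, a ratio of 62.6 (11 to 2496). Fndc1, a fibronectin type III domain protein, was at 6.09 CPM in Control and 71.2 in DPN, a ratio of 11.7 (6.01 to 26). Inhba, the subunit of the TGF beta family ligand activin A, was at 8.13 and 80.1 CPM, a ratio of 9.86 (5.51 to 19.4). All 3 held 12 or fewer UMIs in Control, and their intervals are wide. A single cell held 55.6% of the Control UMIs of Fndc1. The ratio of Cd109 was 2.58 with cells thinned to 1000 UMIs and 25.2 without sub-cluster 3, described below. Vcan, the large proteoglycan versican, was at 79.9 CPM in Control and 417 in DPN, a ratio of 5.22 (4.31 to 6.38). Thbs1, thrombospondin 1, which activates latent TGF beta, was at 36.6 CPM in Control and 173 in DPN, a ratio of 4.74 (3.56 to 6.42). S100a4, a calcium-binding protein of motile fibroblasts, was at 84 and 554 CPM, a ratio of 6.6 (5.48 to 8.0). These genes had at least 54 UMIs in each library. Cd44, the hyaluronan receptor, had a ratio of 4.55 (3.1 to 6.9) from 20.3 CPM in Control. The caveolae genes Cav1 and Cav2 had ratios of 4.78 (3.8 to 6.07) and 7.09 (3.93 to 14.1). Plau, the urokinase that activates plasmin, had a ratio of 4.79 (2.88 to 8.47), and Plec, the cytoskeletal linker plectin, of 4.78 (3.81 to 6.06). Scn7a, a sodium channel that glia also express, Msln, the surface protein mesothelin, Bhlhe40, a transcriptional repressor, and Dcbld2, a membrane receptor, completed the 15 with ratios from 4.63 to 5.51. Of these, Msln stood at 1.39 with the mix of sub-clusters held equal. Scn7a, which is also one of the listed Schwann cell markers, ranged from 2.67 to 6.48 over the settings tried.

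In all other barcodes the same genes differed by other amounts, which cannot be tested between single libraries. Vcan had a ratio of 1.12 (1.02 to 1.23) in other barcodes, S100a4 1.14 (1.1 to 1.17), Cd44 0.972 (0.945 to 1.0) and Inhba 1.26 (1.2 to 1.33). The 15 genes were picked for their high ratios in fibroblasts, so lower ratios in other barcodes follow in part from that choice. Scn7a at 3.42 (3.33 to 3.51), Plau at 3.15 (2.64 to 3.76), Thbs1 at 2.98 (2.56 to 3.48) and Dcbld2 at 2.95 (2.65 to 3.3) were past 1.5 there too, as were Cd109, Cav1, Cav2, Msln and Bhlhe40.

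The 15 lowest ratios held secreted and metabolic genes. RT1-T24-3, a class I histocompatibility gene, was at 113 CPM in Control and 22.9 in DPN, a ratio of 0.202 (0.146 to 0.277), and its reads may be shared with near-identical genes of that family. Pi16, a peptidase inhibitor that marks adventitial fibroblasts, was at 109 and 37.3 CPM, a ratio of 0.342 (0.261 to 0.446). Most of its Control UMIs lay in sub-cluster 2, described below, where 32% of the 25 Control cells held any. Igf1, insulin-like growth factor 1, was at 871 and 368 CPM, a ratio of 0.423 (0.388 to 0.461). Igf1 had the most UMIs of the 15 and was lower in other barcodes too, at a ratio of 0.217 (0.204 to 0.231). Cpz, a carboxypeptidase that acts on Wnt proteins, had a ratio of 0.387 (0.276 to 0.54). Heyl, a target of Notch signalling, had one of 0.42 (0.286 to 0.612). Ucma, the gene furthest above other barcodes, had a ratio of 0.481 (0.387 to 0.597), and Fbln1, the matrix protein fibulin 1, of 0.471 (0.335 to 0.659). Within sub-cluster 1 Fbln1 stood at 0.878 (0.532 to 1.44), and within sub-cluster 2 at 0.247 (0.147 to 0.407). Slc7a8, an amino acid transporter, had a ratio of 0.469 (0.324 to 0.677) in fibroblasts and 1.34 (1.26 to 1.42) in other barcodes. The myelin gene Mbp was at 0.435 (0.323 to 0.584), but 65.2% of its Control UMIs lay in 1 cell, and without the cell with most UMIs in each library its ratio was 1.03. Adprh, G6pc3, Atp5md, Hddc3, Slc22a18 and Rida, chiefly metabolic enzymes and a transporter, ranged from 0.452 to 0.477, but with cells thinned to 1000 UMIs that of Slc22a18 was 1.01 and that of Adprh 0.86, and that of Ucma 0.784.

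**Figure D3:**
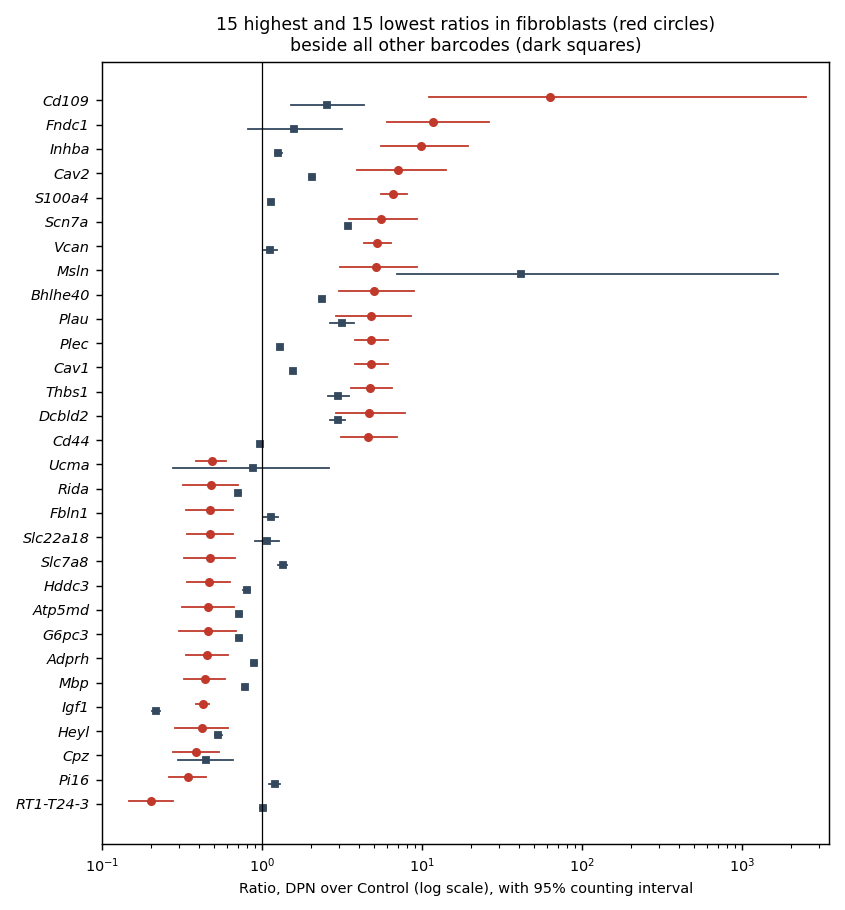
DPN over Control ratio (log axis) of the genes with the 15 highest and 15 lowest ratios in fibroblasts (red circles) beside the ratio of the same genes in all other barcodes (dark squares), with 95% counting intervals. Inhba stands at 9.86 in fibroblasts and 1.26 in other barcodes, and Igf1 below 1 in both at 0.423 and 0.217.

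Collagens of the interstitial matrix included chains that were higher and none that was lower. Of 15 listed, 10 could be compared, of which 6 stood higher in DPN and 0 lower, with a median log2 ratio of 0.69. The 2 collagens with most UMIs were not among the 6. Col3a1 was at 3416 CPM in Control and 3494 in DPN, a ratio of 1.02 (0.988 to 1.06), and 0.855 without sub-cluster 3. Col1a1 was at 2810.4 and 2305 CPM, a ratio of 0.82 (0.788 to 0.854). The summed level of the list was 7173 CPM in Control and 7322 CPM in DPN. Col6a1, of the beaded type VI filaments, was at 84.6 CPM in Control and 266 in DPN, a ratio of 3.14 (2.59 to 3.84), while its partner chain Col6a2 had a ratio of 1.02 (0.921 to 1.13). The type V chains, which set fibril diameter and are named here after their values were seen, had ratios of 2.31 for Col5a1, 2.5 for Col5a2 and 1.87 for Col5a3. In other barcodes the ratio was 2.96 (2.53 to 3.48) for Col6a1 and 2.34 (2.17 to 2.52) for Col5a2.

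Small leucine-rich proteoglycans, which bind collagen fibrils, had 0 of 5 compared members past the fold. Dcn had a ratio of 0.743 (0.734 to 0.753) and Lum, lumican, of 0.695 (0.667 to 0.724), but both chose the cells and nothing is read from them or from the median of the list, which is the value of Dcn. Ogn, osteoglycin, had a ratio of 0.944 (0.866 to 1.03), and Bgn, biglycan, was at 326 CPM in Control and 438 in DPN, a ratio of 1.34 (1.2 to 1.5).

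Basement membrane genes had 5 of 11 compared members higher, 1 lower and a median log2 ratio of 0.41, which turned to −0.22 over the few that could be compared with cells thinned to 1000 UMIs. Lama4, a laminin chain of vessels and nerve sheaths, was at 27.8 CPM in Control and 88.6 in DPN, a ratio of 3.19 (2.27 to 4.57). Lama2, the laminin chain of the endoneurial basement membrane, was at 206 and 355 CPM, a ratio of 1.72 (1.51 to 1.97). The type IV collagen chains Col4a1 and Col4a2, named after their values were seen, had ratios of 2.49 (2.08 to 2.98) and 2.83 (1.71 to 4.93). Col15a1, a collagen at the border of basement membranes, was the lower one, from 861 CPM to 570.4 CPM, a ratio of 0.663 (0.613 to 0.716), which was 0.778 with the mix of sub-clusters held equal. Nid1, nidogen 1, did not differ past the fold, at 0.921 (0.848 to 1.0).

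Elastic fibre and microfibril genes had 2 of 12 compared members higher and 2 lower, with a median log2 ratio of 0.15, equal to that of all genes. Ltbp4, which holds latent TGF beta in microfibrils, was at 65 CPM in Control and 143 in DPN, a ratio of 2.2 (1.75 to 2.79), against 0.861 (0.813 to 0.912) in other barcodes. Fbn1, fibrillin 1, was at 369.7 and 539 CPM, a ratio of 1.46 (1.32 to 1.61), just short of the fold. Without sub-cluster 3, described below, the ratio of Ltbp4 was 1.19 and that of Fbn1 0.857. Enzymes that process and crosslink collagen had 2 of 16 higher and 1 lower, with a median log2 ratio of −0.08. P4ha1, the catalytic chain of prolyl hydroxylase, had a ratio of 2.31 (1.79 to 3.01), and Pcolce, an enhancer of procollagen cleavage, one of 0.628 (0.576 to 0.685) from 698 CPM. Serpinh1, the collagen chaperone, was at 0.869 (0.796 to 0.949), and Ctsk, a collagen-degrading protease, at 0.964 (0.875 to 1.06).

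Matricellular and adhesive glycoproteins had 5 of 14 compared members higher, 0 lower and a median log2 ratio of 0.39. Fn1, fibronectin, was at 654 CPM in Control and 1797 in DPN, a ratio of 2.75 (2.56 to 2.95), which was 1.46 without sub-cluster 3. In other barcodes Fn1 stood at 27.4 and 24.6 CPM, a ratio of 0.896 (0.85 to 0.945). The summed level of the list was 3143 CPM in Control and 4778 CPM in DPN, with Fn1 the member with most UMIs in both. Has2, a hyaluronan synthase named after its values were seen, had a ratio of 3.59 (2.42 to 5.48). Its lowest value over the settings tried was 1.59, and within sub-cluster 1 it stood at 1.54 (0.907 to 2.65). Tnfaip6, which links hyaluronan chains, was at 582 and 484 CPM, a ratio of 0.831 (0.76 to 0.909), and Thbs4 was at 593 and 479 CPM, a ratio of 0.807 (0.738 to 0.883). Both were below 1 and short of the fold.

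Proteases of the matrix and their inhibitors had 4 of 15 members higher and 0 lower, a share of 26.7% beside 25.9% of all genes. Adamts1, a protease that cleaves versican and is named here after its values were seen, was at 65.7 CPM in Control and 211 in DPN, a ratio of 3.21 (2.58 to 4.04). The gelatinase Mmp2 at 0.933 (0.851 to 1.02), the inhibitor Timp2 at 0.977 (0.902 to 1.06) and Timp1 at 1.1 (1.0 to 1.21) lay within the fold. Timp1 in other barcodes was at 0.498 (0.493 to 0.503).

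Among signalling genes, TGF beta and BMP members had 6 of 17 higher and 0 lower, with a median log2 ratio of 0.50. Besides Inhba these were 3 receptors and 2 inhibitors, named here after their values were seen. Tgfbr2 had a ratio of 3.3 (2.22 to 5.05), Bmpr2 of 1.94 (1.34 to 2.86), and the inhibitors Smad7 and Skil of 2.28 (1.56 to 3.39) and 2.28 (1.49 to 3.6). With cells thinned to 1000 UMIs Bmpr2 stood at 0.932. Other barcodes gave 3.43 for Tgfbr2 and 1.83 for Bmpr2. The ligand Bmp5 was at 0.669 (0.479 to 0.936), and the BMP targets Id3 and Id4 were at 0.932 (0.861 to 1.01) and 1.44 (1.18 to 1.75). In the Wnt pathway 2 of 9 members were higher and 2 lower. The ligand Wnt6 had a ratio of 2.14 (1.54 to 3.01). Rspo1, an R-spondin that strengthens Wnt signalling and stood 95.9 times above other barcodes, had one of 0.505 (0.341 to 0.744), but 1.03 with cells thinned to 1000 UMIs.

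The insulin-like growth factor axis differed in both directions, with 3 of 8 members higher, 2 lower and a median log2 ratio of −0.08. Igfbp6, a binding protein that prefers IGF2, was at 663 CPM in Control and 2171 in DPN, a ratio of 3.27 (3.06 to 3.51). It stood 92.2 times above other barcodes, in which its ratio was 1.79 (1.67 to 1.91). Igf1 itself was lower, as given above, and the binding proteins Igfbp5 at 1.01 (0.942 to 1.07) and Igfbp7 at 0.886 (0.843 to 0.931) lay within the fold. Irs2, an adaptor of the insulin receptor named after its values were seen, had a ratio of 2.28 (1.7 to 3.1).

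Growth and neurotrophic factors had 6 of 10 members higher and 1 lower, with a median log2 ratio of 0.70. Vegfa, the vascular endothelial growth factor, was at 79.2 CPM in Control and 155 in DPN, a ratio of 1.96 (1.59 to 2.43). Pdgfa, a ligand of Pdgfra, had a ratio of 2.89 (1.88 to 4.6), while Pdgfra had one of 0.93 (0.797 to 1.09). Mdk, the heparin-binding factor midkine, was the lower member, from 802 CPM to 533 CPM, a ratio of 0.664 (0.613 to 0.719), which was 0.724 with each cell weighing the same. Its relative Ptn, pleiotrophin, was at 0.826 (0.777 to 0.878). Of 9 growth factor receptors 3 were higher and 0 lower, or 33.3% beside 25.9% of all genes higher. Egfr was at 29.8 CPM in Control and 69.9 in DPN, a ratio of 2.35 (1.67 to 3.35), and Fgfr2 was at 0.808 (0.681 to 0.959).

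Chemokines, cytokines and related genes had 3 of 9 members higher and 0 lower, or 33.3% beside 25.9% of all genes higher. The compared chemokines lay within the fold. Ccl2, which attracts monocytes, was at 1124 CPM in Control and 1368 in DPN, a ratio of 1.22 (1.15 to 1.29), while other barcodes gave 0.554 (0.55 to 0.558). Cxcl1, which attracts neutrophils, was at 1.33 (1.23 to 1.43), and the alarmin Il33 at 0.911 (0.867 to 0.956). Il6st, the shared receptor subunit for interleukin 6 cytokines, had a ratio of 2.82 (2.17 to 3.71), and the NF-kB inhibitor Nfkbia one of 1.76 (1.59 to 1.95). Complement genes had 3 of 7 higher and 0 lower. Clu, the chaperone and complement inhibitor clusterin, was at 223 CPM in Control and 845 in DPN, a ratio of 3.79 (3.37 to 4.27), against 1.21 (1.18 to 1.23) in other barcodes. C7, a terminal complement component, had a ratio of 1.76 (1.49 to 2.08), and the starting proteases C1r and C1s lay at 1.02 (0.943 to 1.11) and 1.07 (0.974 to 1.18).

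Genes that mark kinds of fibroblasts differed in both directions. Universal and adventitial genes had 2 of 11 members higher and 3 lower, with a median log2 ratio of −0.08. Dpp4 was at 67 CPM in Control and 178 in DPN, a ratio of 2.65 (2.12 to 3.33), in the opposite direction from Pi16. Gsn, the actin-severing protein gelsolin, was at 12587 and 8549 CPM, a ratio of 0.679 (0.666 to 0.693), just short of the fold. Endoneurial genes, which include Gpc3, had 4 of 13 higher and 1 lower, with a median log2 ratio of 0.16 that became −0.17 with cells thinned to 1000 UMIs. Apod was the lower one, at 0.626 (0.622 to 0.631), and was the gene with most UMIs in both libraries. With Apod left out of the totals the counts became 954 higher and 256 lower genes. Itgbl1, an integrin-like secreted protein, was at 347 and 545 CPM, a ratio of 1.57 (1.42 to 1.74), which was 1.41 without sub-cluster 3. The lipid transporter Abca8a was at 1.05 (0.989 to 1.12).

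Perineurial genes, which mark the barrier-forming sheath cells, had 7 of 9 compared members higher and 0 lower, with all 9 above 1, save Cldn1 at 0.997 when scaled by the median ratio, and a median log2 ratio of 1.03. Itgb4, the integrin chain of that sheath, was at 123 CPM in Control and 272 in DPN, a ratio of 2.22 (1.88 to 2.63), against 0.796 (0.781 to 0.812) in other barcodes. Tjp1, a scaffold of tight junctions, had a ratio of 2.46 (1.79 to 3.45). Msln, also among the 7, had a ratio of 5.12, but 1.39 with the mix of sub-clusters held equal. The tight junction protein Cldn1 at 278 and 308 CPM, with a ratio of 1.11 (0.978 to 1.25), and Tenm2 at 1.22 (1.08 to 1.38) were the 2 members not past the fold, and were also those with most UMIs. Of the 16 meningeal genes only 3 could be compared and none was past the fold.

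Myofibroblast genes, which mark contractile fibroblasts, had 6 of 8 higher and 1 lower, with a median log2 ratio of 0.83. Acta2, the defining smooth muscle actin, helped to choose the cells and was at 0.677 CPM in Control and 0.424 in DPN, both under the limit that a count of 0 allows. The tropomyosins Tpm1 and Tpm2 had ratios of 1.83 (1.51 to 2.22) and 1.73 (1.45 to 2.07). Cald1, caldesmon, was at 175 and 289 CPM, a ratio of 1.65 (1.43 to 1.91). Cthrc1, a secreted protein of scar-forming fibroblasts, had a ratio of 2.36 (1.79 to 3.15), but 1.28 without sub-cluster 3, and the transcription factor Runx1 one of 3.24 (2.14 to 5.1). The lower member was the myosin light chain Myl9 at 0.619 (0.461 to 0.832), or 0.725 without sub-cluster 3.

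**Figure D4:**
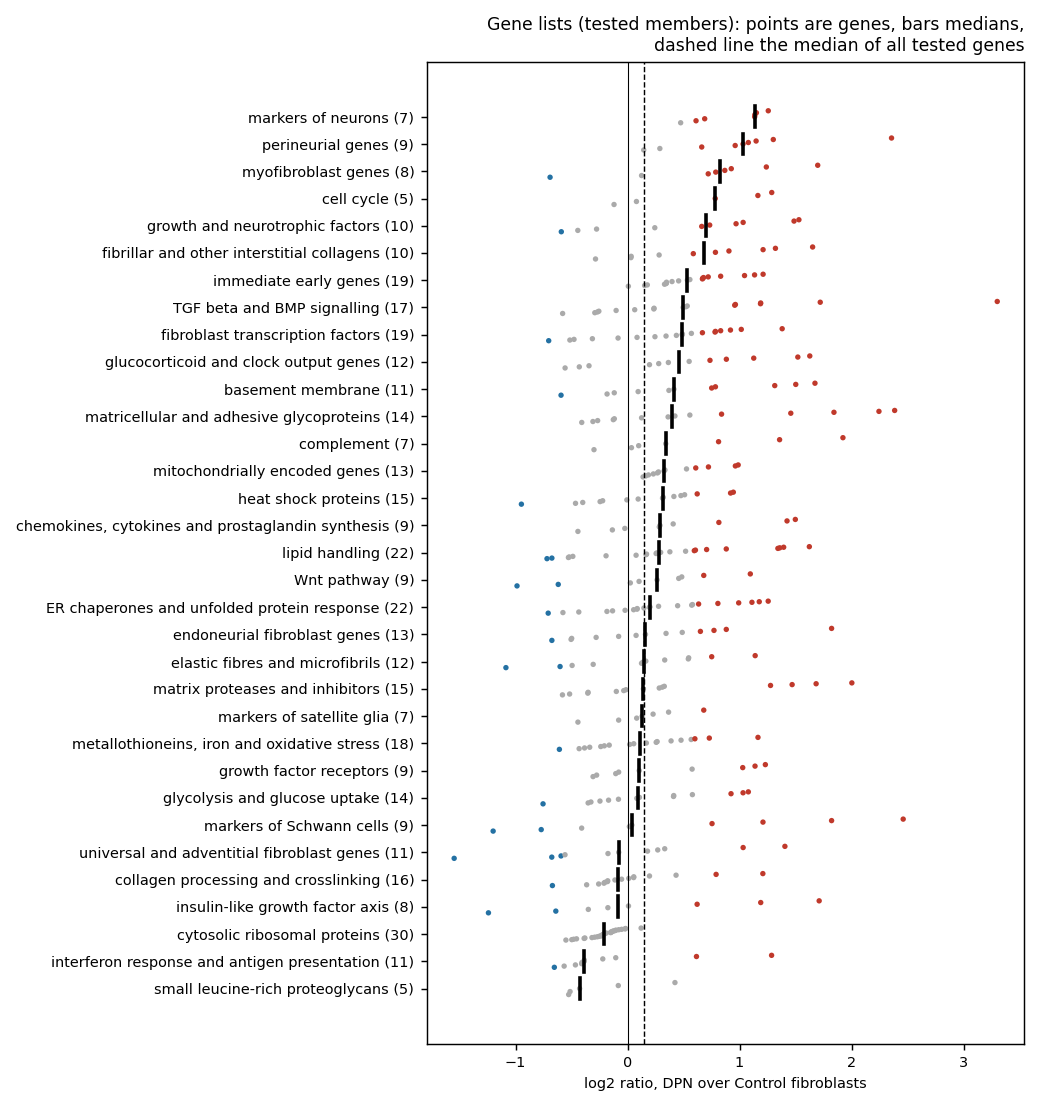
Log2 ratio of DPN over Control for each compared member of the lists with at least 5 such members (points, red if past the fold and higher, blue if past it and lower, grey otherwise), with list medians as black bars and the median of all genes, 0.15, as a dashed line. Perineurial genes sit at a median of 1.03 and myofibroblast genes at 0.83, while interferon and antigen presentation genes sit at −0.39.

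Transcription factors of fibroblasts had 7 of 19 members higher and 1 lower, with a median log2 ratio of 0.49. Klf4 was at 682 CPM in Control and 1084 in DPN, a ratio of 1.59 (1.477 to 1.71), which was 1.42 without sub-cluster 3. Ebf2 had a ratio of 1.72 (1.47 to 2.02) and Zeb2 of 2.6 (1.75 to 3.99), or 1.4 with cells thinned to 1000 UMIs, while Twist1 at 1.485 (1.28 to 1.72) was short of the fold. Hic1, a repressor that marks resting mesenchymal progenitors, was lower, at 0.614 (0.411 to 0.918), or 0.82 with the mix of sub-clusters held equal.

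Immediate early genes, which respond rapidly to stimuli and also to enzymatic dissociation, had all 19 compared members above 1, of which 8 were past the fold. Jun was at 3421 CPM in Control and 5637 in DPN, a ratio of 1.65 (1.6 to 1.7). Fos was at 3486 and 5581 CPM, a ratio of 1.6 (1.55 to 1.65). Fosb was at 1505 and 3104 CPM, a ratio of 2.06 (1.97 to 2.16). Other barcodes showed the same direction for these 3, with 1.58 (1.57 to 1.59) for Jun, 1.71 (1.7 to 1.72) for Fos and 1.61 (1.6 to 1.62) for Fosb. Atf3, a stress-induced factor related to them, was at 713 CPM in Control and 1650.2 in DPN fibroblasts, a ratio of 2.31 (2.16 to 2.48), and at 1.04 (1.03 to 1.05) in other barcodes. Ier3 was the lowest of the 19, at 1.01 (0.926 to 1.09). Scaled by the median ratio, Jun stood at 1.49 and Fos at 1.44, short of the fold, and Ier3 at 0.906.

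Promoters of these genes are shown because all 19 lay above 1 as scaled here. They were searched on both strands for CArG, the element of serum response factor, for CRE, the element of CREB with the letters TGACGTCA, and for the AP-1 motif TGANTCA, which no CRE match contains. Of the 14 members with a RefSeq promoter of 300 bases, 4 held a CArG match (Egr1, Egr2, Klf6 and Zfp36) and 4 a CRE match (Jund, Ier2, Btg2 and Dusp1), against 1.64% and 1.91% of all 27457 promoters. An AP-1 match was found in 0 of the 14 and in 7.33% of all promoters. Motifs of TEAD (GGAATG) and SMAD (GTCTAGAC) factors were searched too. They were found in 1 and 0 of the 14, against 13.9% and 0.215% of all promoters. Promoters of the 15 highest and 15 lowest ratios were also searched, and no motif matched more than 1 gene of either set. A match describes letters only and is not shown to be a bound site. For 4 of the genes, chosen after their values and matches were seen, the 250 bases before the start are printed 5′ to 3′ on the gene's strand, in build GRCr8, with the match in capitals.
Egr2, chr20:21054442-21054691, minus strand: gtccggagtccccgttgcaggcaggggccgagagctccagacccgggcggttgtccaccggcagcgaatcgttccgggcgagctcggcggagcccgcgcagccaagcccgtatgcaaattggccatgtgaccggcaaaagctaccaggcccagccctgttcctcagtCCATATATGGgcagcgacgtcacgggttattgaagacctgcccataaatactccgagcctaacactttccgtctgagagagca
Zfp36, chr1:92799109-92799358, minus strand: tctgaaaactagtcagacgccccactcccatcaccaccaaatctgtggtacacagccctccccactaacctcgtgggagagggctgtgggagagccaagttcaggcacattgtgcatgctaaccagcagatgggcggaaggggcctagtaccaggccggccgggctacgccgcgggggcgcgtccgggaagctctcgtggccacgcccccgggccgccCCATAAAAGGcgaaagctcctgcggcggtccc
Ier2, chr19:40399123-40399372, plus strand: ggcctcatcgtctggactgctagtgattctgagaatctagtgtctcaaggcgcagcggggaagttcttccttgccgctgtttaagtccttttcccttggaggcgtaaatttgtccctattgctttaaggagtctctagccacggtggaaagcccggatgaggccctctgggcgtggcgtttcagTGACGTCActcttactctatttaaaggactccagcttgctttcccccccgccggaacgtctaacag
Dusp1, chr10:17184603-17184852, plus strand: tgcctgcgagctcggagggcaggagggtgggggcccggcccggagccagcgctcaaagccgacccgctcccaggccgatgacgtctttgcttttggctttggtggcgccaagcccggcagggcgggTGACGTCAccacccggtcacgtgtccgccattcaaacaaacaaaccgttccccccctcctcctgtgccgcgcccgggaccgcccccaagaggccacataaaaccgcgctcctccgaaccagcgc
The first 2 sequences carry a CArG match and the last 2 a CRE match. Egr2, a zinc finger factor, was at 81.9 CPM in Control and 131 in DPN, a ratio of 1.59 (1.29 to 1.98). Zfp36, which destabilizes cytokine transcripts, had a ratio of 1.27 (1.16 to 1.39), Ier2 of 1.45 (1.35 to 1.56) and the phosphatase Dusp1 of 1.11 (1.03 to 1.21). Of these 4 only Egr2 was past the fold, and when scaled by the median ratio it stood at 1.44.

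Chaperones of the endoplasmic reticulum had 6 of 22 members higher and 1 lower, with a median log2 ratio of 0.20, near that of all genes. Hspa5, the chaperone BiP, was at 1348 CPM in Control and 2911 in DPN, a ratio of 2.16 (2.05 to 2.27). Hsp90b1 was at 513 and 898 CPM, a ratio of 1.75 (1.61 to 1.9). Both were also higher in other barcodes, at 2.36 (2.34 to 2.38) and 1.86 (1.83 to 1.88). Calr at 0.985 (0.923 to 1.05) and Atf4, a factor of the stress response, at 1.06 (0.995 to 1.13) were not past the fold. Heat shock proteins had 3 of 15 higher and 1 lower, or 20% and 6.67%. Hspa1b, the inducible HSP70, was at 3129 CPM in Control and 1622 in DPN, a ratio of 0.519 (0.497 to 0.541), and at 0.543 (0.54 to 0.546) in other barcodes.

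Clock output and glucocorticoid genes had 5 of 12 members higher and 0 lower. Dbp, a rhythmic transcription factor, was at 53.5 CPM in Control and 165 in DPN, a ratio of 3.09 (2.42 to 3.99), and at 2.84 (2.73 to 2.95) in other barcodes. Nr1d1, a repressor of the clock, named after its values were seen, had a ratio of 2.87 (2.24 to 3.72). The labels and methods do not state the hour of tissue collection. Txnip, a glucose-responsive inhibitor of thioredoxin, was at 240.4 and 400.5 CPM, a ratio of 1.67 (1.47 to 1.89), and at 2.47 (2.43 to 2.52) in other barcodes. The glucocorticoid targets Tsc22d3 at 0.788 (0.697 to 0.892) and Cebpd at 0.68 (0.635 to 0.727) were below 1 and within the fold.

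Iron and oxidative stress genes had 3 of 18 members higher and 1 lower, with a median log2 ratio of 0.11. Fth1, the heavy chain of the iron store ferritin, was at 8336 CPM in Control and 13829 in DPN, a ratio of 1.66 (1.62 to 1.69), which was 1.39 with the mix of sub-clusters held equal. In other barcodes Fth1 stood at 0.899 (0.897 to 0.901), and the light chain Ftl1 in fibroblasts at 1.01 (0.966 to 1.06). Cp, the iron-oxidizing ceruloplasmin, had a ratio of 2.24 (1.84 to 2.75), or 1.31 with cells thinned to 1000 UMIs. Glycolysis and glucose uptake genes had 3 of 14 higher and 1 lower. Ldha, lactate dehydrogenase A, was at 1.49 (1.28 to 1.74), Hk2, hexokinase 2, at 1.33 (1.16 to 1.53), and the lactate transporter Slc16a1 at 2.11 (1.52 to 2.98).

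Lipid genes had 8 of 22 members higher and 2 lower, with a median log2 ratio of 0.28 that became −0.06 over genes with at least 400 UMIs. Apoe, the main apolipoprotein of the ganglion, was at 26572 CPM in Control and 18943 in DPN, a ratio of 0.713 (0.703 to 0.723). The cholesterol synthesis enzyme Hmgcs1, named after its values were seen, had a ratio of 2.57 (2.15 to 3.07), while Sqle, of the same pathway and also named so, was at 1.43 (1.1 to 1.88) and at 0.947 without sub-cluster 4. Lpl, lipoprotein lipase, was lower at 0.608 (0.457 to 0.808), or 0.712 without sub-cluster 3.

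Interferon and antigen presentation genes had 2 of 11 members above 1 and a median log2 ratio of −0.39. B2m, the light chain of class I molecules, was at 3708 CPM in Control and 2838 in DPN, a ratio of 0.765 (0.738 to 0.793), and at 0.748 (0.745 to 0.752) in other barcodes. Ifitm3 was at 0.724 (0.687 to 0.764). The 2 above 1 were Irf1 at 1.53 (1.37 to 1.72) and Ifit2 at 2.44 (1.71 to 3.56), both past the fold, but they stood at 1.38 when scaled by the median ratio and 1.45 with cells thinned, in that order. Cytosolic ribosomal proteins had 1 of 30 members above 1 and 0 past the fold, with a median log2 ratio of −0.21. Mitochondrially encoded genes had 13 of 13 above 1 and 4 past the fold, with a median log2 ratio of 0.33, but Mt-nd1 stood at 0.993 when scaled by the median ratio. Of cell cycle genes only 5 of 20 could be compared. Cdkn1a, the inhibitor p21, was at 109.7 CPM in Control and 268 in DPN, a ratio of 2.44 (2.05 to 2.92), and Pcna, of the replication fork, was at 1.06 (0.889 to 1.26).

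Markers of other cells were present in fibroblasts. Sums for satellite glial, endothelial and mural markers hold genes that the choice of cells kept low. The 14 neuronal markers summed to 373 CPM in Control fibroblasts and 711 CPM in DPN fibroblasts, and to 4859 and 6933 CPM in other barcodes, and 6 of the 7 compared were higher. Prph, the neuronal filament peripherin, had a ratio of 2.2 (1.69 to 2.9). The 14 Schwann cell markers summed to 1242 CPM in Control and 1367 CPM in DPN, with 4 of 9 higher and 2 lower. The 10 satellite glial markers summed to 631 and 674 CPM with 1 of 7 higher, the endothelial markers to 117 and 137 CPM, the mural markers to 82.6 and 110 CPM, the macrophage and neutrophil markers to 16.3 and 25.9 CPM, the T and NK cell markers to 2.71 and 1.70 CPM and the red blood cell markers to 2.71 and 8.90 CPM. None of the 13 macrophage or 11 T and NK cell markers could be compared, and 7 of the latter had 0 UMIs in both libraries. Without likely doublets the median log2 ratio of the compared Schwann cell markers was −0.12 in place of 0.04. The part of free RNA in these values was not tested.

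Fibroblasts fell into 4 sub-clusters, described by their leading genes and given no cell type name. Sub-cluster 1 held 175 Control and 212 DPN cells and had Lpl, Gad1, Ucma and Slc7a8 among its leading genes, with Rbp4, a retinol carrier, at 891 CPM in it and 149 CPM in the other fibroblasts. Sub-cluster 2 held 25 and 50 cells and was led by Aspn, Esm1, Sfrp4 and Ccdc80, with Igfbp5 at 4613 CPM against 323 CPM in the others. Sub-cluster 3 held 3 Control and 35 DPN cells and was led by Fndc1, Has2, Vcan, Sbsn and Fn1, with Fn1 at 5809 CPM against 783 CPM. Of these 38 cells 35 came from 1 library, so the sub-cluster may reflect that library and not a kind of cell. Sub-cluster 4 held 8 and 30 cells and had the glial genes Sox2, Ptgds and Mbp among its leading genes. Of its cells 3 of 8 and 15 of 30 were marked as likely doublets, against 16 of 211 and 36 of 327 in all fibroblasts. Sub-clusters 1 to 4 made up 82.9%, 11.8%, 1.42% and 3.79% of Control and 64.8%, 15.3%, 10.7% and 9.17% of DPN fibroblasts.

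In sub-cluster 2 the genes that lead in most fibroblasts were low. Apod was at 2267 CPM in its Control and 1586 in its DPN cells, against 127450.0 and 90107 CPM in sub-cluster 1. Myoc was at 75.4 and 21.6 CPM there and at 7739.8 and 7408 CPM in sub-cluster 1. Il33 was at 118 and 9.61 CPM and at 2273 and 2858 CPM. These 3 genes were thus far lower in sub-cluster 2 in both libraries. By contrast, Fth1 at 20610.5 and 35014 CPM, Igfbp6 at 2482 and 4668 CPM and Itgb4 at 614 and 1036 CPM were above sub-cluster 1 in both libraries. Aspn, the proteoglycan asporin, had 1 UMI outside sub-cluster 2 and stood there at 468 CPM in Control and 60.1 in DPN, and Pi16 was at 759 and 142 CPM there. Within sub-cluster 2 Aspn was found in 36% of Control and 26% of DPN cells, and Pi16 in 32% and 14%.

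**Figure D5:**
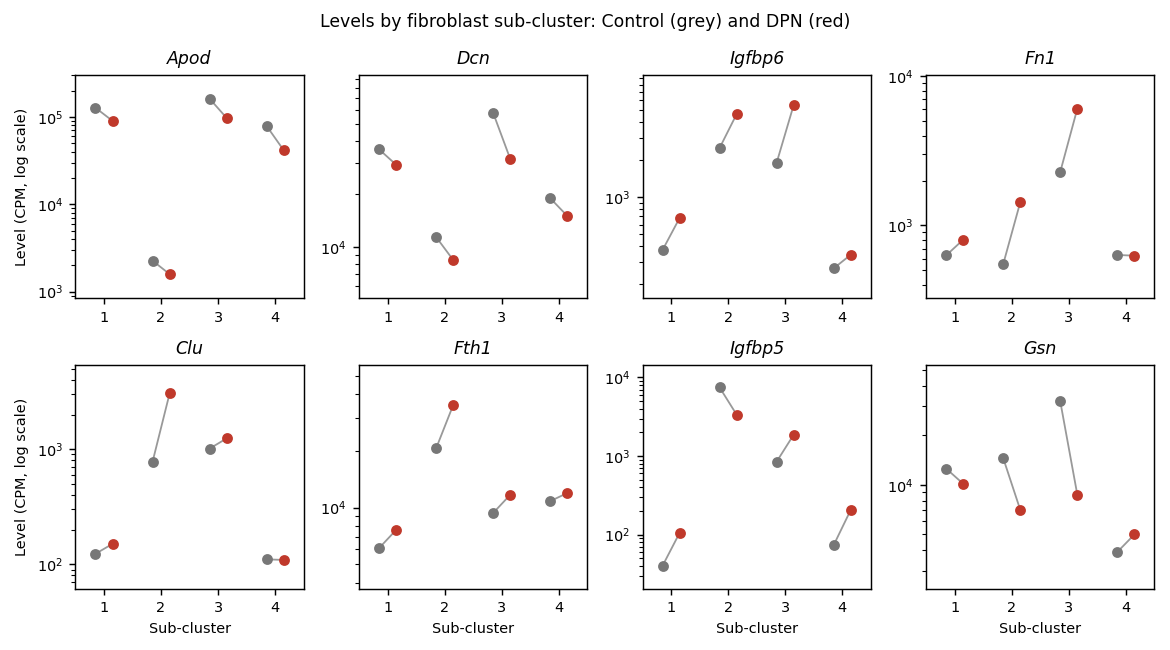
Level in CPM (log axes, scaled per panel) of 8 genes in the 4 fibroblast sub-clusters, with Control in grey joined to DPN in red; sub-cluster 3 rests on 3 Control cells. Apod lies near 2267 CPM in sub-cluster 2 Control cells and at 127450.0 CPM in sub-cluster 1, and Igfbp5 stands above 1 in ratio in sub-clusters 1, 3 and 4 but at 0.448 in sub-cluster 2.

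Within sub-clusters the differences between libraries could be set side by side. Sub-cluster 1 had 544 genes higher and 87 lower of 2720 compared, and sub-cluster 2 had 193 and 146 of 810. Several genes had like ratios in both. Igfbp6 had a ratio of 1.81 (1.61 to 2.04) in sub-cluster 1 and 1.88 (1.7 to 2.09) in sub-cluster 2, both below the 3.27 of all fibroblasts. Hspa5 had 2.12 (2.0 to 2.25) and 2.59 (2.21 to 3.04), and Hspa1b 0.495 (0.467 to 0.524) and 0.579 (0.527 to 0.638). Fos and Jun were past 1.5 in all 4 sub-clusters, from 1.62 to 2.22 for Fos and from 1.54 to 2.2 for Jun. Igf1 was below 1 in all 4, from 0.248 (0.178 to 0.343) in sub-cluster 2 to 0.853 (0.569 to 1.31) in sub-cluster 4, where the interval holds 1, as it does in sub-cluster 3.

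Other genes differed between the libraries by unlike amounts in sub-clusters 1 and 2. Inhba was at 6.08 and 5.13 CPM in sub-cluster 1, a ratio of 0.844 (0.234 to 2.93), and at 16.2 and 248 CPM in sub-cluster 2, a ratio of 15.3 (5.1 to 75.5) on 3 Control UMIs. These intervals do not overlap. Clu had a ratio of 1.22 (0.973 to 1.53) in sub-cluster 1 and 3.94 (3.32 to 4.72) in sub-cluster 2. Atf3 had 1.51 (1.38 to 1.65) and 6.45 (5.16 to 8.14), and Cav1 1.24 (0.813 to 1.91) and 4.51 (3.23 to 6.47). For Clu, Atf3 and Cav1 as well the interval in sub-cluster 2 lay above that in sub-cluster 1. The genes set side by side here were picked after their values were seen. How many of all compared genes have intervals that do not overlap was not counted. The intervals hold counting error only, and those in sub-cluster 2 rest on 25 Control cells, so nothing is read from their lack of overlap. Plau and Egfr were higher in sub-cluster 1, at 6.72 (4.02 to 11.9) and 3.41 (2.35 to 5.05), while sub-cluster 2 held 0 UMIs of Plau in both libraries. Thbs1 was at 4.45 (3.24 to 6.22) in sub-cluster 1 and 1.79 (0.576 to 7.34) in sub-cluster 2. C7 was higher in sub-cluster 1, at 2.58 (2.16 to 3.11), and lower in sub-cluster 2, at 0.365 (0.185 to 0.713) on 40 UMIs. Pi16 had a ratio of 1.51 (0.755 to 3.11) in sub-cluster 1 and 0.187 (0.135 to 0.255) in sub-cluster 2, where most of its UMIs lay. These came from 32% of the 25 Control and 14% of the 50 DPN cells, which the counting interval does not reflect. Sub-clusters 3 and 4 had few Control UMIs of most of these genes, but Atf3 was past the fold there too, at 4.15 (2.5 to 7.44) and 1.67 (1.34 to 2.09), and C7 in sub-cluster 4 at 2.8 (1.28 to 7.22). None of these differences between sub-clusters was tested.

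The abundant collagens also differed by sub-cluster. Col1a1 had a ratio of 0.646 (0.611 to 0.683) in sub-cluster 1 and 0.442 (0.396 to 0.493) in sub-cluster 2, against 1.7 (1.39 to 2.09) in sub-cluster 3, where the Control value rests on 3 cells. Col3a1 had 0.782 (0.745 to 0.82) in sub-cluster 1, 1.03 (0.957 to 1.12) in sub-cluster 2 and 1.85 (1.52 to 2.28) in sub-cluster 3. The pooled ratio of Col3a1 thus lay between values on both sides of 1. Fn1 had 1.28 (1.16 to 1.41) in sub-cluster 1 and 2.61 (2.11 to 3.25) in sub-cluster 2. Over all settings tried, including those without sub-cluster 3 and with the mix of sub-clusters held equal, the ratio of Fn1 ranged from 1.46 to 3.12, of Vcan from 2.70 to 5.59, of Igfbp6 from 2.10 to 3.91, of Inhba from 4.74 to 11.4 and of Thbs1 from 3.47 to 5.07. That of Has2 ranged from 1.59 to 5.43, of Fndc1 from 3.52 to 27.7 and of S100a4 from 2.92 to 8.58. The ratio of Apod ranged from 0.565 to 0.675 and of Igf1 from 0.381 to 0.537.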

How the data were processed

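Single-cell RNA profiles came from dorsal root ganglia of rats, with 1 library for each of 2 groups. The authors aligned reads and made the deposited UMI counts per gene and barcode with Cell Ranger 3.1.0. STAR is also named in the submitters' processing notes, and its version and the genome build are not given in the sources used here. The study's methods mention down-sampling of reads between libraries, which would lower the counts of the deeper one. The deposited counts had totals of 121101966 UMIs in Control and 115409375 in DPN.

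UMIs were summed over the fibroblasts of each library and divided by their total. A ratio of at least 1.5, or its inverse, with an exact conditional binomial 95% interval that left out 1 was taken as past the fold, among genes with at least 100 UMIs over both libraries and a UMI in at least 10% of fibroblasts of a library. There is no replicate of either group, so no test was made. Intervals and floors of 3 counts cover counting error only. Reads of near-identical genes, such as class I histocompatibility, metallothionein and ribosomal protein genes, may be split by the counting, so these values are uncertain. The 39 gene lists held 714 genes, of which 23 had no symbol in the counts. The members and lists were chosen with earlier results of these data known.

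Named genes were the cell type markers and genes of the choice, the 15 highest and 15 lowest ratios, the 20 genes furthest above other barcodes, the leading 10 genes of each sub-cluster and, of each list, the 4 members with most UMIs and those with the highest and lowest ratio. Others are named as such. Sub-clusters came from Leiden clustering (leidenalg 0.10.2) of 1000 variable genes and 15 principal components, centred per library, at a resolution of 0.1. Likely doublets were marked by similarity to simulated doublets (Scrublet in scanpy 1.11.5) and kept, and leaving them out was an alternative. Promoters of 300 bases came from RefSeq in build GRCr8. Code ran in Python 3.11.15 with numpy 2.4.6, scipy 1.17.1, pandas 2.3.3, scikit-learn 1.9.0 and matplotlib 3.10.9 and was tested on simulated data. Alternatives changed the scaling, the minimum of UMIs, the limits on barcodes, the treatment of doublets and the clustering. Leaving out sub-cluster 3 or 4, holding the mix of sub-clusters equal, and leaving Apod out of the totals were chosen after seeing the data. Some genes that the rule names are not reported here.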

Additional observations from a re-analysis of the deposited data

Results flagged for a closer look

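The limits of 100 UMIs and 10% of cells were applied within each of sub-clusters 1 and 2, and clone and locus names were left out. For 5 genes that met them in both, the DPN over Control ratio was past the fold in opposite directions. How many genes met them in both is not given, so the 5 have no share of all genes beside them. In sub-cluster 2, as compared above, 193 genes were higher and 146 lower of 810, so genes past the fold were common there. The ratios of the 5 are given without intervals. C7, given above, had too few UMIs in sub-cluster 2 to be counted here. Fgl2, a secreted fibrinogen-like protein, had a ratio of 1.607 in sub-cluster 1 and 0.5345 in sub-cluster 2. Igfbp5, an IGF binding protein, had 2.633 and 0.4483, and its ratio over all fibroblasts was near 1. In sub-cluster 1 Igfbp5 was at 39.9 CPM in Control and 105 in DPN, where 9.71% and 12.3% of cells held any. In sub-cluster 2 Igfbp5 was far higher, at 7457 CPM in Control and 3343 in DPN. Sparcl1, a matricellular protein, had 2.165 and 0.625, and Tgfbr3, a co-receptor for TGF beta, had 1.505 and 0.5681. Thbs4 went the other way, at 0.6182 in sub-cluster 1 and 3.422 in sub-cluster 2. With 1 library per group none of these differences between sub-clusters was tested.

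Barcodes under the minimum of 1000 UMIs were outside every comparison. Among them 3 in Control and 7 in DPN met all other limits of the choice of fibroblasts. These are few beside the 211 and 327 cells that were used.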

How the results depend on the processing

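No paired analysis was possible because Control and DPN were each a single pool. For the same reason no replicate could be left out. Against 1083 higher and 178 lower genes, thinning cells to 1000 UMIs gave 92 and 51, a minimum of 20 UMIs gave 2014 and 303, and a minimum of 400 UMIs gave 212 and 45, as fewer or more genes could be compared. Scaling by the median ratio gave 391 lower genes. The other 25 values of these counts lay within 1.5 times. The share of barcodes chosen as fibroblasts was 8.263% in Control and 8.594% in DPN when barcodes had to have under 10% mitochondrially encoded UMIs. These lay nearer to each other than the 2.15% and 2.97% of the main choice. That limit removed a larger part of the other cells than of the fibroblasts.

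Of 503 list medians under an alternative 28 had the other sign, in 12 of 33 lists. The 9 that also left the median counting interval of the members are given here. Thinning turned the median of basement membrane genes to -0.217 and of endoneurial fibroblast genes to -0.1658. With a minimum of 20 UMIs the insulin-like growth factor axis stood at 0.1196 and universal and adventitial fibroblast genes at 0.1785. The insulin-like growth factor axis stood at 0.01822 with under 10% mitochondrially encoded UMIs and at 0.0422 without likely doublets, which put markers of Schwann cells at -0.1174. Matrix proteases and inhibitors stood at -0.1591 with the sub-cluster mix held equal, and lipid handling at -0.05764 with at least 400 UMIs.

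Of 3951 ratios of named genes under an alternative 162 lay on the other side of 1, for 62 of 247 genes. For genes past the fold as reported there were 8 such values. These were Ccn3 at 0.9881 with the sub-cluster mix held equal, Bmpr2 at 0.932, Ccnd1 at 0.9276, Rspo1 at 1.032 and Slc22a18 at 1.014 with cells thinned, Gpm6b at 0.924 and Sox2 at 0.9504 without sub-cluster 4, and Sbsn at 0.8289 without sub-cluster 3. The values with cells thinned were taken without the minimum of 100 UMIs and may rest on few UMIs. The cause of these changes of sign was not tested. Cd109 had no value without likely doublets, since its Control count was then 0. Fibroblasts formed 5 sub-clusters when at least 5 were asked for and 4 without centring. Depth limits what can be said of the detected genes that were not compared.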
